A study of Mus musculus with 34 samples.

Results

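The clustered histone genes are the 67 genes of the deposited expression files whose symbols begin with Hist1h, Hist2h, Hist3h or Hist4, out of 23951 genes in all. The group was taken up because Hist1h4c, a gene for histone H4, had the lowest 5XFAD-to-control fold change among genes with an adjusted p under 0.05. The members were thus chosen by symbol, and the family was selected on the measured FPKM values of Hist1h4c in these 2 groups. The difference between 5XFAD and control mice is therefore given below as a description, and nothing is read from it. RNA-seq came from the hippocampus of 4 control mice (Hdac1f/f), 5 Hdac1 cKO mice (Nestin-Cre on the Hdac1f/f background), 6 5XFAD mice (Hdac1f/f with 5XFAD) and 5 compound mice (Hdac1f/f with both Nestin-Cre and 5XFAD). The control and Hdac1 cKO mice were 13 to 14 months old and the 5XFAD and compound mice 13 months. It also came from GFAP+ nuclei sorted from the cortex of 3 control (Hdac1f/f) and 4 Hdac1 cKO (Hdac1f/f with Nestin-Cre) mice of 13 months. All groups carry the floxed Hdac1 alleles. Nestin-Cre deletes Hdac1 in the neural lineage, so microglia and vessel cells keep the gene, and 5XFAD mice, a model of Alzheimer’s disease, carry transgenes driven by the neuronal Thy1 promoter. The 5XFAD and compound libraries were deposited apart from the control and Hdac1 cKO libraries, so an effect of 5XFAD and a difference between the 2 sets of libraries cannot be told apart, whereas Hdac1 cKO against control and compound against 5XFAD each lie within 1 set.

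Histones H2A, H2B, H3 and H4 form the spool around which DNA is wound, and H1 binds the DNA where it enters and leaves that spool. The replication-dependent genes lie in clusters and are transcribed mainly in S phase, when new DNA has to be packed. Their mRNAs usually end in a short stem-loop that is bound by SLBP and lack a poly(A) tail, although polyadenylated forms are made as well, also in cells that no longer divide. Libraries primed on poly(A), as the hippocampal ones were, sample these polyadenylated forms.

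All 67 symbols were found in the GENCODE annotation of mm9. On chromosome 13, 53 genes lie between positions 21807632 and 24026720, with 10 on chromosome 3, 3 on chromosome 11 and 1, Hist4h4, on chromosome 6. They comprise 6 genes for H1, 18 for H2A, 18 for H2B, 12 for H3 and 13 for H4, 2 of them annotated as pseudogenes. The 150 bases after the stop codon were searched for a fixed 16-base pattern of the histone stem-loop. It was found in 62 of the 65 protein-coding members (95.4%), against 3 of 19090 other protein-coding genes (0.0157%). The members without a match were Hist1h2an, Hist2h2bb and Hist2h2be, and a stem-loop of another sequence would have been missed. The stem-loops of the genes on which the results turn are shown here from the mm9 genome, 5′ to 3′ on the coding strand, with both arms of the stem in capitals.
Hist1h4c (chr13:23789958-23789973, minus strand): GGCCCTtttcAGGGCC
Hist1h4d (chr13:23673819-23673834, plus strand): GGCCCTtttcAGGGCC
Hist1h4h (chr13:23623327-23623342, plus strand): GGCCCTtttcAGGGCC
Hist1h2bc (chr13:23776516-23776531, plus strand): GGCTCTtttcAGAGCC
Hist1h1e (chr13:23713651-23713666, minus strand): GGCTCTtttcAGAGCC

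The 3 H4 genes share the same 16 bases, as does Hist4h4, and Hist1h2bc and Hist1h1e share another run. The annotated transcript ended 29 bases past the stem-loop in Hist1h4c, 25 bases past it in Hist1h4d and 46 bases past it in Hist1h4h. It ran 272 bases past it in Hist1h2bc, which is annotated with 2 exons, and 1487 bases past it in Hist3h2a. Among coding members with a stem-loop, the annotated end lay over 100 bases past it in 7 of the 18 with a hippocampal mean of at least 0.5 FPKM and in 12 of the 44 below that level.

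Promoters of the classes differed in the motifs they held. The 250 bases before each annotated start were searched on both strands for the TATA box TATAAA, for the CCAAT box, for the GC box core GGGCGG that SP1 binds, for the octamer ATTTGCAT that OCT1 binds in H2B promoters and for GGTCCG, which lies in the element of H4 promoters known to bind HINFP. CCAAT was present in all 6 H1, 18 H2A and 18 H2B promoters but in 4 of 13 H4 promoters (30.8%), against 35.5% of 19117 other protein-coding genes. The octamer was present in 50.0% of H2B promoters, 38.9% of H2A promoters and no H1, H3 or H4 promoter, against 1.56% of other genes. GGTCCG was present in 11 of 13 H4 promoters (84.6%) and 8.15% of other genes. TATAAA was present in 33 of the 67 members (49.3%) and in 11.8% of other genes. The GC box core was present in 32.8% of the members and 42.2% of other genes, in 10 of 13 H4 promoters (76.9%) but in none of the 18 H2B promoters. None of the 5 motifs contains another. The promoters of the H4 genes compared below and of Hist1h2bc are shown to place these motifs, which are in capitals on either strand except for the GC box core, left in lower case.
Hist1h4c (chr13:23790324-23790573, minus strand): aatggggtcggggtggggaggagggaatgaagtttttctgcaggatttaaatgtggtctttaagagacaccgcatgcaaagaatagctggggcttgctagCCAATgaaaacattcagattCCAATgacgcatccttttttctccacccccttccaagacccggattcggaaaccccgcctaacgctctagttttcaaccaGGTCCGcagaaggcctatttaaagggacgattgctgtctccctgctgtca
Hist1h4d (chr13:23673217-23673466, plus strand): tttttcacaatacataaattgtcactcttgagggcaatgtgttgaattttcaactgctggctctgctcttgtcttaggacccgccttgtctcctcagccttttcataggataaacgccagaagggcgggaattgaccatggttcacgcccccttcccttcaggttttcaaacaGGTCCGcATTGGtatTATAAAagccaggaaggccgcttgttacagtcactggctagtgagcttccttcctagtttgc
Hist1h4h (chr13:23622669-23622918, plus strand): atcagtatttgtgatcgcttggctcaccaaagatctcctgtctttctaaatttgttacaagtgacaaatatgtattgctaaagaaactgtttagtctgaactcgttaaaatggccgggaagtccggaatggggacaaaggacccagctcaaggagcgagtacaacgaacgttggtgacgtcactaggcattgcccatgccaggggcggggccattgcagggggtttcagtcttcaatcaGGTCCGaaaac
Hist1h2bc (chr13:23775818-23776067, plus strand): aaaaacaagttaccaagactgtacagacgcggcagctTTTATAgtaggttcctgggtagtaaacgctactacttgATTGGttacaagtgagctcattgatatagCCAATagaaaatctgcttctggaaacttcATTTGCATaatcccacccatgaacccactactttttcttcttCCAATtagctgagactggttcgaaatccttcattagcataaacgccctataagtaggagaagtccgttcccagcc

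The 3 H4 promoters all held GGTCCG, Hist1h4d held TATAAA as well, and Hist1h4h held neither TATAAA nor CCAAT. The promoter of Hist1h2bc held the octamer, CCAAT on both strands and TATAAA on the minus strand.

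Levels are in FPKM, fragments scaled to transcript length and to the mapped reads of the library. The hippocampal libraries yield fragments from the 3′ end alone, so levels of different genes are not transcript numbers. Of the 67 members, 54 were above 0 in at least 1 of the 20 hippocampal libraries, 10 were above 0 in all 20, and 20 had a mean of at least 0.5 FPKM. In the 7 libraries of GFAP+ nuclei, 45 were above 0 in at least 1 library and 19 had a mean of at least 0.5 FPKM. A total of 8 members, among them 4 for H3, were listed at 0 in all 27 libraries. Relative sequencing depth, read from the smallest steps between FPKM values, ranged from 0.754 to 2.35 in the hippocampus and from 0.869 to 1.26 in the GFAP+ nuclei, each relative to its first control. A value of 0 means that no fragment was counted at that depth.

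Hist1h2bc, for histone H2B, and Hist1h4d, for histone H4, carried most of the signal. The mean over the hippocampal libraries was 186.8 FPKM for Hist1h2bc and 175.1 FPKM for Hist1h4d, followed by 17.8 FPKM for the linker histone gene Hist1h1e and 11.5 FPKM for Hist1h4h. Together Hist1h2bc and Hist1h4d supplied between 79.4% and 88.1% of the summed FPKM of the members in every hippocampal library. In GFAP+ nuclei the order was different, with Hist1h2bc at 89.5 FPKM, the H2A gene Hist3h2a at 22.2 FPKM, Hist1h4d at 10.3 FPKM and the H2B gene Hist2h2be at 6.17 FPKM. Hist3h2a averaged 5.08 FPKM in the hippocampus. The annotated exons of Hist3h2a overlap those of Trim17 on the same strand, so fragments of these genes may be mixed. Tissue, nuclei and library chemistry differ between the 2 sets, and no test was made between them.

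**Figure D1:**
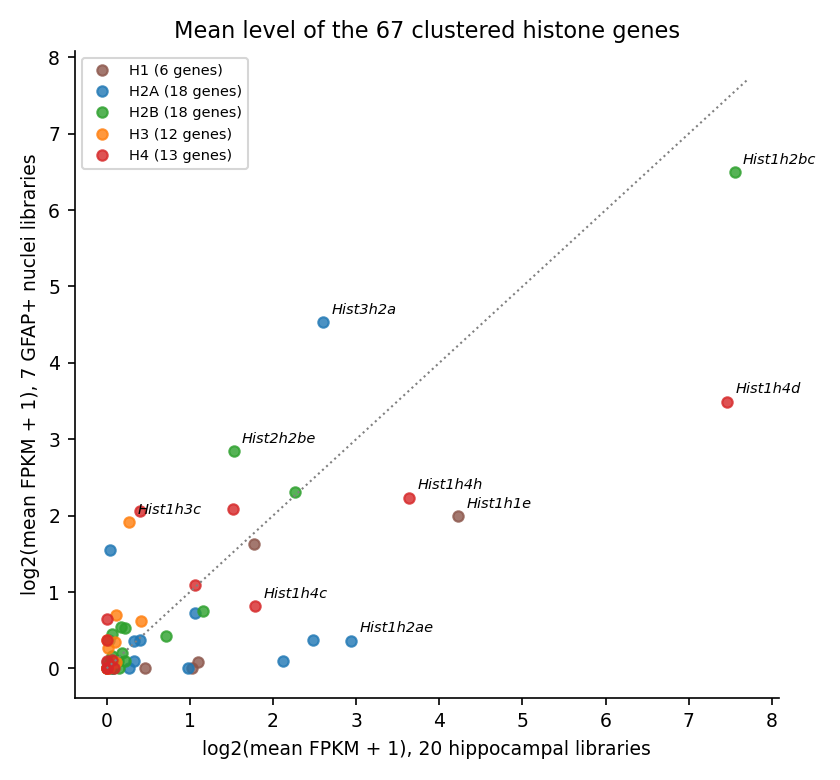
Mean level of each of the 67 clustered histone genes as log2(mean FPKM + 1), in 20 hippocampal libraries (horizontal axis) and in 7 libraries of GFAP+ nuclei (vertical axis); each point is a gene, coloured by histone class, and the dotted line marks equal levels. Hist1h2bc and Hist1h4d stand apart on the horizontal axis, Hist3h2a lies above the line, and most genes lie near 0 on both axes.

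The H3 genes were the lowest class in the hippocampus. Their summed level over 12 genes was between 0 and 3.26 FPKM in the control, Hdac1 cKO and 5XFAD hippocampi and 0 in all 5 compound hippocampi. It was between 1.38 and 8.70 FPKM in GFAP+ nuclei, where Hist1h3c averaged 2.78 FPKM against 0.205 FPKM in the hippocampus. No H3 gene reached a mean of 0.5 FPKM in the hippocampal libraries.

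Some members have coding sequences that are the same as, or close to, those of other members. Coding sequences of H4 members were between 85.3% and 100% identical, with a median of 93.9%, and the pairs Hist1h4m and Hist1h4n, Hist1h2ao and Hist1h2ap, and Hist2h2aa1 and Hist2h2aa2 were identical. Hist1h4c was at most 96.2% identical to another H4 member and Hist1h4d at most 94.2%. Hist1h2bc was 99.5% identical to Hist1h2bq in its coding sequence, and part of its value may come from such copies. Identity past the stop codon was not compared, although the hippocampal libraries yield fragments from the 3′ end alone. How the counting treated fragments that match several copies is not given in the sources used here.

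The targeted gene was checked first. The Hdac1 level was 7.93 ± 2.20 FPKM (SD, n = 4) in control, 2.74 ± 0.279 (n = 5) in Hdac1 cKO, 8.23 ± 1.56 (n = 6) in 5XFAD and 1.92 ± 0.516 (n = 5) in compound hippocampi. It was at 15.6 ± 6.25 FPKM (n = 3) in control and 8.95 ± 2.40 (n = 4) in Hdac1 cKO GFAP+ nuclei, where its ranges overlapped. Summed astrocyte markers were between 2760 and 3360 FPKM in GFAP+ nuclei and between 1150 and 1580 FPKM in the hippocampus, and summed neuronal markers between 207 and 303 FPKM and between 1430 and 1770 FPKM. In tissue samples, fewer cells of a type and less RNA per cell cannot be told apart. Choroid plexus markers, a list of 8 genes led by Ttr, varied most, since the summed level was 596 FPKM in control 1 but between 13119 and 20537 FPKM in the other 3 controls. It was between 64.0 and 1640 FPKM in Hdac1 cKO, between 60.7 and 8020 FPKM in 5XFAD and between 65.0 and 14100 FPKM in compound hippocampi, so that most controls held far more of these transcripts than any Hdac1 cKO library.

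Comparisons used limma on log2(FPKM + 1) and took in every gene that averaged 0.5 FPKM or more in the samples compared. A gene was called at a fold change of at least 1.5 with an unadjusted p under 0.05. Counts after Benjamini-Hochberg adjustment, again under 0.05, are given as well. Fold changes on this scale understate those of genes with low FPKM. A member below the filter was not tested, and one that passed the filter through 1 group alone had to differ. Such members are named apart from those called, as is Hist1h4c where the mice that chose it were compared, and the counts of higher and lower members describe only the members tested.

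Hist1h4c, the gene behind the choice, was low in 5XFAD hippocampi and variable elsewhere. It was at 5.34, 4.06, 1.68 and 2.42 FPKM in the 4 controls. It was at 0 in 4 of the 6 5XFAD mice and at 0.959 and 0.803 FPKM in the others. The 5XFAD values all lay below those of the controls. In Hdac1 cKO hippocampi it was at 4.73 and 7.75 FPKM in 2 mice and at 0 in the other 3, so this group spanned both ends of the range. In compound hippocampi it was at 9.33, 3.44, 2.36, 4.76 and 1.09 FPKM, all above the 5XFAD values. In GFAP+ nuclei it was at 0.711, 1.31 and 0 FPKM in controls and at 1.28, 0, 0 and 1.99 FPKM in Hdac1 cKO, with overlapping groups.

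These values rest on few fragments. The FPKM values of Hist1h4c were, within 1%, whole multiples of what 1 fragment contributes, and correspond to 3, 5, 1 and 2 fragments in the controls and to 1 fragment in each of the 2 5XFAD libraries above 0. The groups summed to 11 fragments in control, 11 in Hdac1 cKO, 2 in 5XFAD and 15 in compound hippocampi. The log2 fold change of 5XFAD against control was -1.75 ± 0.29 (SE), and that of compound against 5XFAD was 1.87 ± 0.35, which reuses the 5XFAD mice that chose the gene and is given without a test. The comparison with neither the 5XFAD nor the control mice is compound against Hdac1 cKO, which holds 5XFAD against the Hdac1-deficient background. There Hist1h4c differed by 1.04 ± 0.76 on the log2 scale, in the other direction, with overlapping groups (limma adjusted p = 0.718, two-sided exact permutation p = 0.206). Without Hdac1 cKO 2, the mouse with the highest value of that group, the difference was 1.54 and the gene was called. In GFAP+ nuclei the difference was 0.03 ± 0.46 (limma adjusted p = 0.999).

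**Figure D2:**
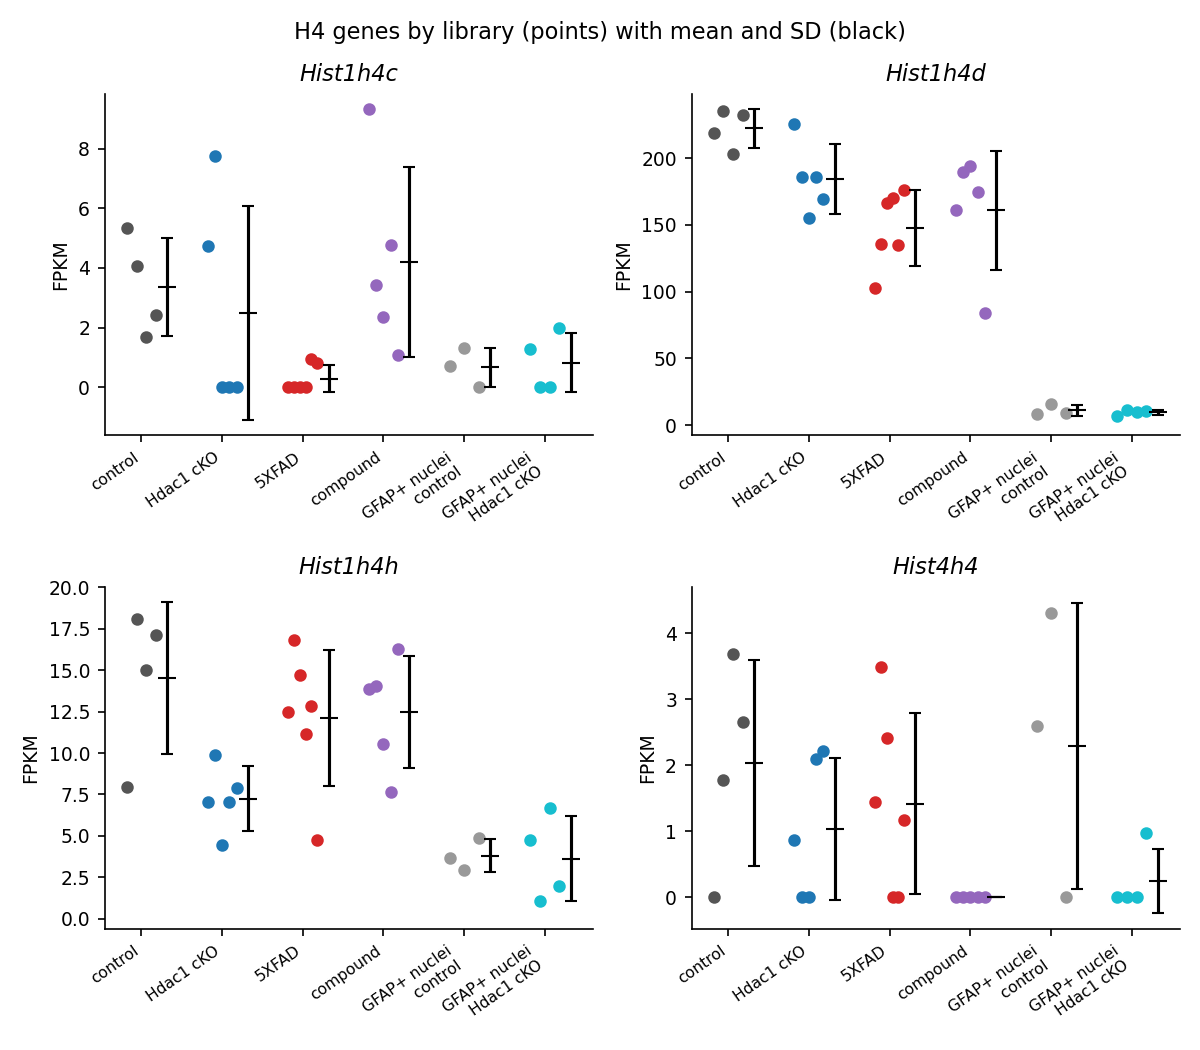
FPKM of the H4 genes Hist1h4c, Hist1h4d, Hist1h4h and Hist4h4 in each library of the 6 groups (points), with the mean and SD in black beside them. Hist1h4c lies near 0 in 5XFAD mice, Hist1h4d is highest in controls and low in GFAP+ nuclei, Hist1h4h is lower in Hdac1 cKO than in the other hippocampal groups, and Hist4h4 is at 0 in all compound mice.

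In 5XFAD against control hippocampi, 2 of the 21 members tested passed these thresholds, Hist1h4c and Hist1h4d, both lower, beside 2.95% of all genes tested. At an adjusted p under 0.05 it was 1 member, beside 0.708% of all genes. The rule used this comparison, so the counts are a description and nothing is read from them. Hist1h4d was at 219, 235, 203 and 232 FPKM in controls and between 103 and 176 FPKM in the 6 5XFAD mice, with a median of 151 FPKM. The groups did not overlap, and the log2 fold change was -0.61 ± 0.14. Summed microglial markers were between 335 and 450 FPKM in 5XFAD and between 99.5 and 141 FPKM in control mice. The astrocyte marker Gfap, at 1.9 ± 0.12, and Ptprc, from the list of endothelial and blood markers, at 0.81 ± 0.15, were higher past the thresholds too. All 8 choroid plexus markers were lower, with a median of -1.36, and none of them passed the thresholds. The part of these markers in these values was not tested. The median over the members tested was -0.34, beside -0.01 over all genes tested, and 16 members were lower and 5 higher. Hist1h4c, Hist1h3e and Hist2h2ab reached 0.5 FPKM in 1 of these groups alone. Without them 14 of 18 members were lower and 4 higher, with a median of -0.32. Hist2h2ac, for H2A, was among the members that varied as much within groups as between them, at 9.25, 3.17, 14.2 and 0.789 FPKM in the controls and between 0 and 5.74 FPKM in 5XFAD mice.

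In Hdac1 cKO against control hippocampi, 15 of the 21 members tested were lower and 6 higher, with a median of -0.33 on the log2 scale beside -0.00 over all genes tested. Leaving out Hist1h4c and Hist1h3e, which reached 0.5 FPKM in the controls alone, 13 of 19 were lower and 6 higher, with a median of -0.28. Of these 19, 1, Hist1h4h, was called, beside 3.36% of all genes tested. None reached an adjusted p under 0.05 in limma (smallest 0.153), beside 0.154% of all genes, and 3 had an unadjusted p under 0.05. Hist1h4h was at 7.93, 18.1, 15.0 and 17.1 FPKM in controls and at 7.03, 9.88, 4.43, 7.08 and 7.86 FPKM in Hdac1 cKO mice. Its log2 fold change was -0.89 ± 0.24 (limma adjusted p = 0.195, exact permutation p = 0.0317). Control 1 lay within the Hdac1 cKO range and the other 3 controls lay above it.

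Hist1h2bc was at 172, 259, 241 and 220 FPKM in controls and at 161, 181, 140, 139 and 164 FPKM in Hdac1 cKO mice. Its log2 fold change was -0.49 ± 0.12 (limma adjusted p = 0.153, exact permutation p = 0.0159), just short of a 1.5-fold difference, and again control 1 alone fell within the Hdac1 cKO range. Hist1h4d differed by -0.28 ± 0.10 (limma adjusted p = 0.304), with control mice at 222 ± 14.6 FPKM (SD, n = 4) and Hdac1 cKO mice at 184 ± 26.3 FPKM (n = 5). Control 1 was also the control with few choroid plexus transcripts. An alternative chosen after seeing the data took the level of choroid plexus markers as a covariate. The difference was then -0.23 for Hist1h4h and -0.14 for Hist1h2bc, and the call of Hist1h4h was lost. The count of members called was still 1 in that fit, through another member. Calls over all genes rose from 480 to 697 of 14265. Choroid plexus content ran nearly parallel to genotype in these 2 groups. Hdac1 loss and choroid plexus content thus cannot be told apart for Hist1h4h and Hist1h2bc here. Without control 1 the differences were -1.13 for Hist1h4h and -0.61 for Hist1h2bc, and 4 members in place of 1 were called. Over all genes the calls rose as well, from 480 of 14265 to 659 of 14262. Among the mice with 5XFAD the relation of these genes to the markers was not tested, and single mice went both ways. The highest compound value of Hist1h4h was in compound 5 at 65.0 FPKM of markers, and the lowest 5XFAD value in 5XFAD 6 at 6751 FPKM. The highest 5XFAD value of Hist1h4h, 16.8 FPKM, was in 5XFAD 2 at 8020 FPKM of markers. For Hist1h2bc the highest 5XFAD value, 231 FPKM, was in 5XFAD 3 at 5674 FPKM, and the highest compound value, 227 FPKM, in compound 4 at 276 FPKM.

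**Figure D3:**
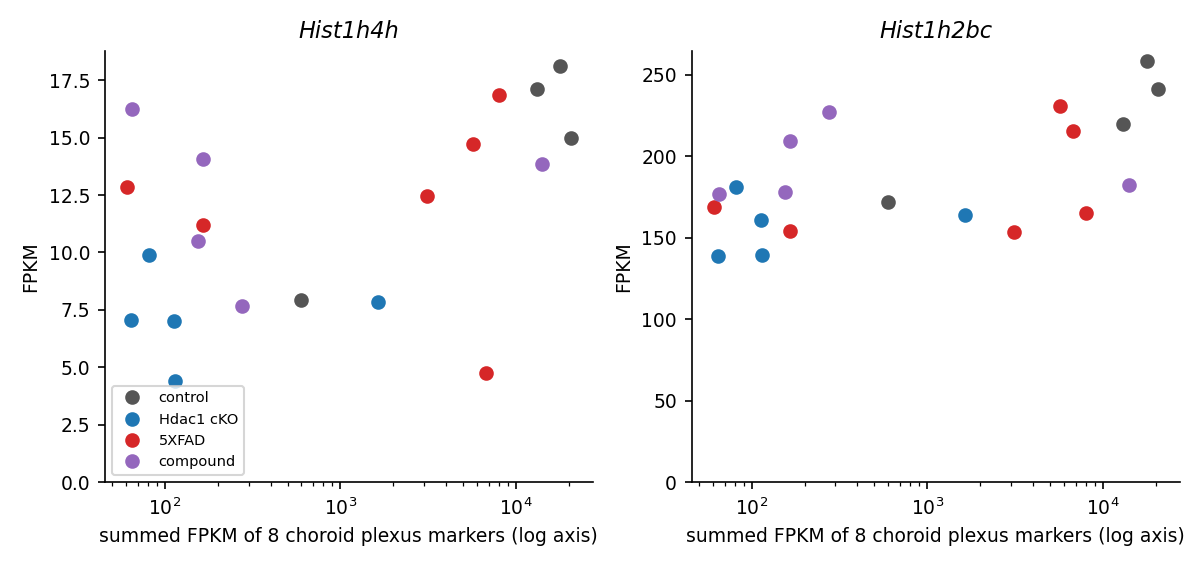
FPKM of Hist1h4h (left) and Hist1h2bc (right) in each of the 20 hippocampal libraries against the summed FPKM of 8 choroid plexus markers on a log axis, coloured by group. The 3 controls with 13119 FPKM or more of markers have higher values of both genes than control 1 at 596 FPKM, which lies at the level of the Hdac1 cKO mice. The highest Hist1h4h value of the compound mice lies at 65.0 FPKM of markers and that of the 5XFAD mice at 8020 FPKM.

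In compound against 5XFAD hippocampi, the loss of Hdac1 on the 5XFAD background, 15 of the 21 members tested were higher and 6 lower, with a median of 0.24 beside -0.00 over all genes. Leaving out 4 members that reached 0.5 FPKM in 1 of these groups alone, 13 of 17 were higher and 4 lower, and 1, the linker histone gene Hist1h1b, was called, beside 1.28% of all genes tested. Among the 17 none reached an adjusted p under 0.05 in limma (smallest 0.738), beside 0.00698% of all genes, and 1 had an unadjusted p under 0.05. Of the 4 left out, Hist1h4c, higher, and Hist4h4, lower, also lay past the thresholds, which is no test of either. Hist1h1b was at 1.63, 3.01, 0.689, 3.71 and 0.958 FPKM in compound mice and between 0 and 2.88 FPKM in 5XFAD mice, with a median of 0.410 FPKM. Its difference was 0.76 ± 0.35 (limma adjusted p = 0.738, exact permutation p = 0.0931), and the groups overlapped. The call was lost in 8 of 11 fits with a mouse left out and under 2 of the other settings. All 8 microglial markers were higher and all 8 choroid plexus markers lower in this comparison, none of them called. The astrocyte marker Aqp4 was called higher, at 0.91 ± 0.18 (limma adjusted p = 0.234). The part of these markers in these results was not tested.

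Hist4h4, the single member on chromosome 6, was listed at 0 in all 5 compound hippocampi. It was at 0, 1.78, 3.69 and 2.66 FPKM in controls, at 0.863, 0, 0, 2.09 and 2.21 FPKM in Hdac1 cKO mice and between 0 and 3.48 FPKM in 5XFAD mice. Each of these groups also held at least 1 library at 0, so none was fully apart from the compound group. The values correspond to 9 fragments over the control group, 8 over Hdac1 cKO, 10 over 5XFAD and 0 over the compound group. In each comparison with the compound group Hist4h4 passed the filter through the other group alone, so a lower compound level was fixed by the filter, and no test is given. In GFAP+ nuclei Hist4h4 was at 2.59, 4.30 and 0 FPKM in controls and at 0 in 3 of 4 Hdac1 cKO mice, with 0.966 FPKM in the fourth, and passed the filter through the controls alone.

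In compound against Hdac1 cKO hippocampi, which gives the difference of 5XFAD without the controls, 10 of the 21 members tested were higher and 11 lower, with a median of -0.03 beside -0.01 over all genes. Leaving out 2 members that reached 0.5 FPKM in 1 group alone, Hist2h4 and Hist4h4, 9 of 19 were lower and 10 higher, with a median of 0.01, and 1, Hist1h4h, was called, higher, beside 3.55% of all genes tested. Among the 19 none reached an adjusted p under 0.05 in limma (smallest 0.158), beside 1.49% of all genes, and 2 had an unadjusted p under 0.05. Hist1h4h was at 13.9, 14.1, 10.5, 7.67 and 16.3 FPKM in compound mice, a log2 difference of 0.70 ± 0.21 from Hdac1 cKO (limma adjusted p = 0.158, exact permutation p = 0.0238). It was 0.56, and no longer called, without Hdac1 cKO 3, and it was 0.69, and still called, with choroid plexus markers as a covariate. Summed choroid plexus markers were at 65.0 to 276 FPKM in 4 of the 5 compound libraries and at 14099 FPKM in compound 1. They were at 64.0 to 114 FPKM in Hdac1 cKO 1 to 4 and at 1642 FPKM in Hdac1 cKO 5. Hist1h2bc was at 183, 209, 178, 227 and 176 FPKM in compound mice, a difference of 0.31 ± 0.10 (limma adjusted p = 0.209). Hist1h4d was at 161, 190, 194, 175 and 84.3 FPKM in compound mice and overlapped with Hdac1 cKO. Microglial markers also differed in this comparison, with 6 of 8 called higher and a summed level between 404 and 775 FPKM in compound against 121 to 134 FPKM in Hdac1 cKO mice. The astrocyte markers Gfap, at 1.97 ± 0.17, and Aqp4, at 0.86 ± 0.14, were called higher too. So was Ptprc, from the list of endothelial and blood markers, at 0.87 ± 0.21. The part of these markers in the results was not tested.

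In compound against control hippocampi, 13 of the 21 members tested were lower and 8 higher, with a median of -0.14 beside -0.01 over all genes. Leaving out Hist1h4c and 2 members that reached 0.5 FPKM in 1 group alone, Hist1h2ak and Hist4h4, 12 of 18 were lower and 6 higher, with a median of -0.16, and 2 were called, the H2A gene Hist1h2ab, lower, and Hist1h1b, higher, beside 4.24% of all genes tested. Among the 18 none reached an adjusted p under 0.05 in limma (smallest 0.374), beside 0.662% of all genes, and 3 had an unadjusted p under 0.05. Hist1h2ab was at 2.03, 0.463, 1.92 and 3.46 FPKM in controls and at 2.13, 0, 0, 0.453 and 0 FPKM in compound mice, a difference of -1.03 ± 0.39 (limma adjusted p = 0.374, exact permutation p = 0.0873). The groups overlapped, and this call was lost in 6 of 9 fits with a mouse left out and, at -0.43, with choroid plexus markers as a covariate. That of Hist1h1b, at 0.72 (exact permutation p = 0.0952), was lost in 5 of 9 such fits, and with the covariate the difference was 0.83 but no longer called. Of 8 markers each, 6 microglial and 2 astrocyte markers were called higher and 5 choroid plexus markers lower in this comparison, and the part of the microglial and astrocyte markers in these results was not tested. Hist1h4d was not called, and differed by -0.52 ± 0.22 (limma adjusted p = 0.440, exact permutation p = 0.0238). Its values did not overlap between the groups, and how often this holds over all genes tested was not counted. Without compound 5, which had the lowest level of Hist1h4d, the difference was -0.31, and the smallest difference under the other settings was also -0.31. The comparisons of 5XFAD, Hdac1 cKO and compound mice with controls share the same 4 control mice.

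**Figure D4:**
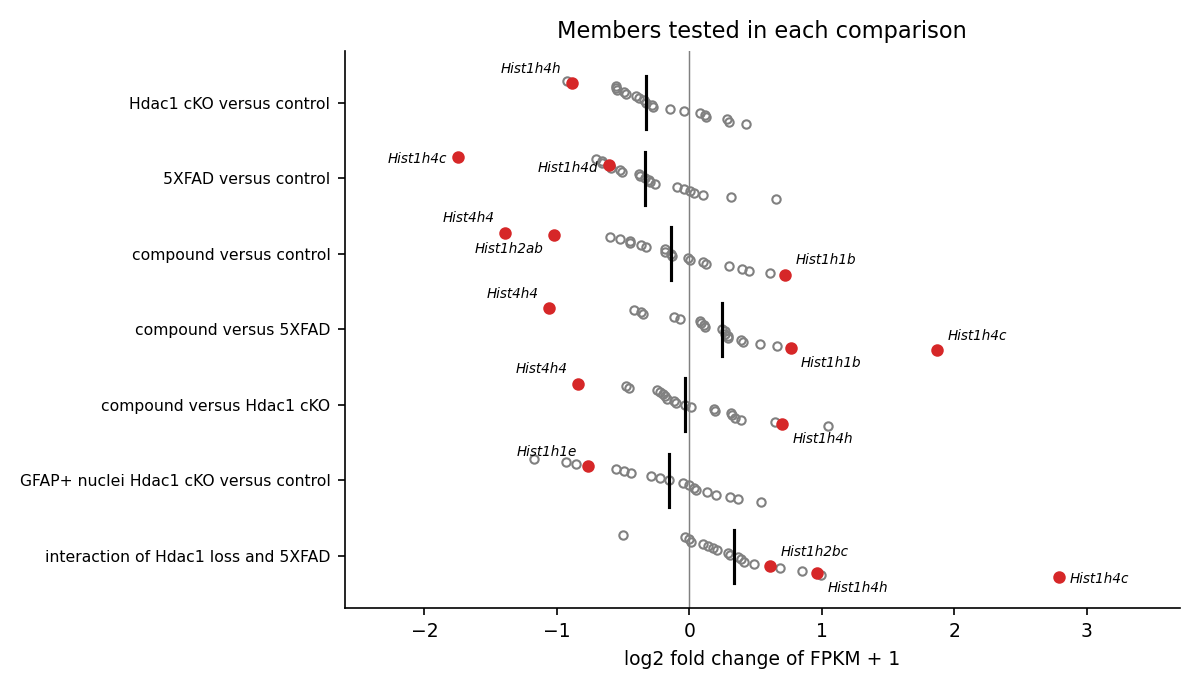
Log2 fold change of FPKM + 1 of each member tested in the 6 comparisons and the interaction; each point is a gene, black bars mark the median over the members, and filled red points with names are members past a fold change of 1.5 and an unadjusted p under 0.05, where Hist4h4 in the comparisons with compound mice, and Hist1h4c, are marked as a description only. The medians lie at -0.33 for Hdac1 cKO against control, -0.34 for 5XFAD against control and 0.24 for compound against 5XFAD, with most genes within 1 of 0.

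The interaction asks whether Hdac1 loss acts differently with and without 5XFAD, and holds the 5XFAD-to-control difference within it. Of the 20 members tested, 17 had a positive and 3 a negative interaction, with a median of 0.34 beside 0.01 over all genes. Leaving out Hist1h4c, Hist2h2bb and Hist4h4, which averaged under 0.5 FPKM in at least 1 group, 15 of 17 were positive, with a median of 0.31, and 2 were called, Hist1h2bc and Hist1h4h, both positive, beside 4.07% of all genes tested. Among the 17 none reached an adjusted p under 0.05 in limma (smallest 0.348), beside 0% of all genes, and 2 had an unadjusted p under 0.05. The interaction was 0.61 ± 0.18 for Hist1h2bc (limma adjusted p = 0.348) and 0.97 ± 0.39 for Hist1h4h (limma adjusted p = 0.491). With choroid plexus markers as a covariate both calls were lost, at 0.50 and 0.87, and that of Hist1h2bc was lost under quantile normalization as well. That of Hist1h4c, 2.79 ± 0.83, includes the difference that chose the gene and is given without a test.

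In GFAP+ nuclei, 12 of the 19 members tested were lower and 7 higher in Hdac1 cKO, with a median of -0.15 beside -0.01 over all genes. In this set 6 members reached 0.5 FPKM in 1 group alone, namely Hist1h2ab, Hist1h2be, Hist1h3e, Hist1h4m, Hist2h3b and Hist4h4. Without them 8 of 13 members were lower and 5 higher, with a median of -0.05, and 1, Hist1h1e, was called, beside 2.58% of all genes tested. Among the 13 none reached an adjusted p under 0.05 in limma (smallest 0.984), beside 0.0133% of all genes, and 2 had an unadjusted p under 0.05. Hist1h1e was at 3.79, 2.72 and 6.30 FPKM in controls and at 1.90, 1.53, 1.84 and 2.75 FPKM in Hdac1 cKO, a difference of -0.77 ± 0.28 (limma adjusted p = 0.984, exact permutation p = 0.0857). The groups overlapped at control 3 and Hdac1 cKO 4 alone, and without control 4 the difference was -0.51 and the call was lost. Endothelial and blood markers were lower in 5 of 6 tested, with Cldn5 and Ptprc called, and their summed level was between 63.9 and 127 FPKM in control and between 34.7 and 84.1 FPKM in Hdac1 cKO nuclei. The part of these markers in this difference was not tested. In the hippocampus Hist1h1e was at 20.1, 14.7, 22.1 and 22.0 FPKM in controls and at 30.3, 18.1, 10.9, 17.3 and 15.8 FPKM in Hdac1 cKO mice, with no such separation.

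Hist1h2bc was at 132, 118 and 81.2 FPKM in control and at 71.7, 63.4, 77.6 and 81.7 FPKM in Hdac1 cKO GFAP+ nuclei. The difference was -0.56 ± 0.18 (limma adjusted p = 0.984, exact permutation p = 0.0571), where 3 against 4 mice cannot give less than 0.0286. Only control 4 lay within the Hdac1 cKO range. Control 4 also had 152 FPKM of choroid plexus markers against 17.6 and 19.8 FPKM in the other controls and between 112 and 268 FPKM in Hdac1 cKO, and with these markers as a covariate the difference of Hist1h2bc was -0.22. Hist3h2a, at 28.8, 29.2 and 16.1 FPKM in controls and 14.8, 13.8, 28.3 and 24.3 FPKM in Hdac1 cKO, showed overlapping groups.

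**Figure D5:**
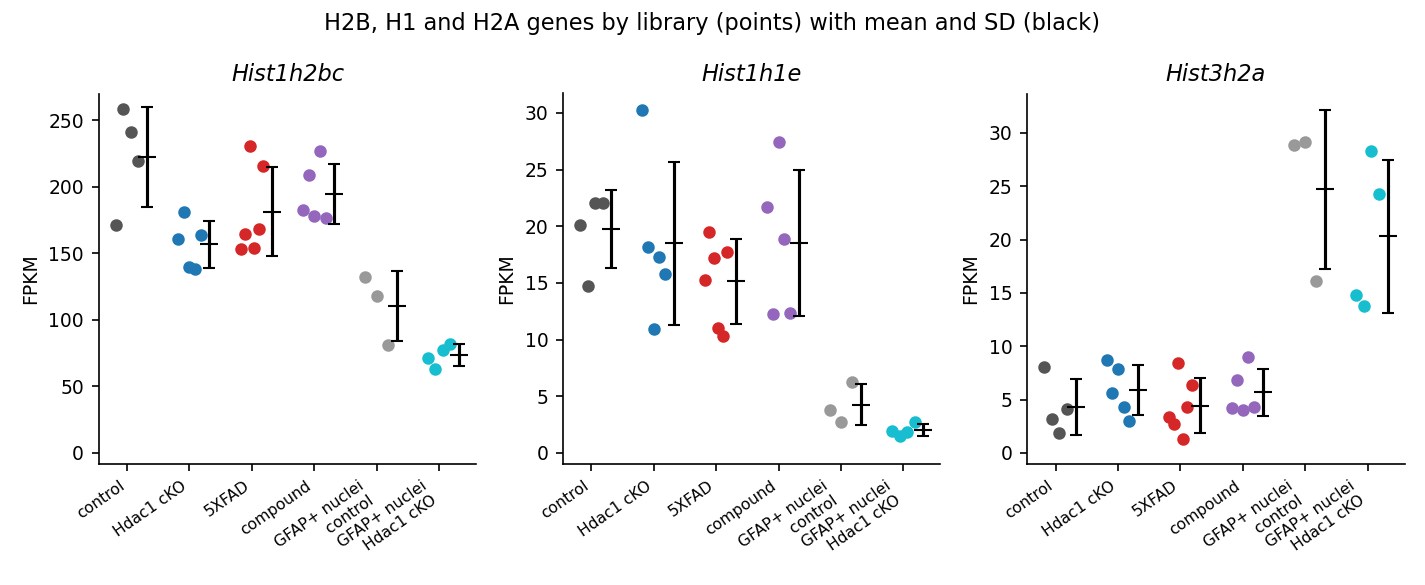
FPKM of Hist1h2bc (H2B), Hist1h1e (H1) and Hist3h2a (H2A) in each library of the 6 groups (points), with the mean and SD in black beside them. Hist1h2bc is lower in the Hdac1 cKO groups of hippocampus and GFAP+ nuclei than in most of their controls, and Hist3h2a is higher in GFAP+ nuclei than in the hippocampus.

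Genes that act with the clustered histone genes were counted from lists. Of the 11 histone variant genes outside the clusters that were measured, several of which supply polyadenylated histone mRNA at all phases of the cell cycle, none was called in a hippocampal comparison. Control hippocampi had H2afz at 397 ± 19.5 FPKM (SD, n = 4) and 5XFAD hippocampi at 337 ± 47.0 FPKM (n = 6), with H3f3b at 183 ± 18.5 and 173 ± 32.2 FPKM in the same mice. In GFAP+ nuclei 1 of 11 was called, beside 2.58% of all genes tested, the linker histone variant gene H1fx, at -0.73 ± 0.24 (limma adjusted p = 0.984). No gene of histone mRNA processing was called in any comparison, out of 12 or 13 tested. Slbp, which encodes the protein that binds the stem-loop, was at 16.3 ± 3.06 FPKM (n = 4) in control, 13.1 ± 1.47 (n = 5) in Hdac1 cKO, 13.8 ± 2.59 (n = 6) in 5XFAD and 12.6 ± 3.11 (n = 5) in compound hippocampi.

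Of the histone chaperone genes, 9 or 10 were tested, and none but Asf1b passed the call thresholds in any comparison. Asf1b averaged 1.31 FPKM in compound hippocampi and between 0.343 and 0.410 FPKM in the other hippocampal groups. It thus passed the filter through the compound mice alone, and its differences of 0.71 from 5XFAD and 0.63 from Hdac1 cKO are given without a test. Genes of S phase and mitosis were low, with the proliferation gene Mki67 at 0.281 ± 0.273 FPKM (n = 4) in control hippocampi and 0.264 ± 0.173 FPKM (n = 6) in 5XFAD hippocampi. In Hdac1 cKO against control and in 5XFAD against control hippocampi, none of the 14 and 15 tested genes of this list was called. In compound against control hippocampi 1 of 13 was called, beside 4.24% of all genes tested. It was E2f1, which encodes a transcription factor of S phase entry, higher at 0.59 ± 0.22 (limma adjusted p = 0.366). None was called in the other comparisons of hippocampi. In GFAP+ nuclei 2 of 15 were called, beside 2.58% of all genes tested, with Ccne1 lower at -1.25 ± 0.38 and E2f1 higher at 0.68 ± 0.30 (limma adjusted p = 0.984 for each).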

How the data were processed

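The FPKM values were used as the authors deposited them, 1 file per library with 23951 genes. Hippocampal RNA was sequenced by 3′ Digital Gene Expression and GFAP+ nuclear RNA by SMART-Seq v4, and the submitters' processing notes name TopHat, Bowtie and Cufflinks 2.0.0 with mm9. Of 34 samples, 27 had a file, and the other 7, which are the 6 of ChIP-seq and the second control of the GFAP+ nuclei, are not analysed here. No fragment counts were given, and depth and fragments were inferred from FPKM steps, which gave whole multiples within 1% for 87.1% of 5010 low hippocampal genes and 77.2% of 3167 in GFAP+ nuclei. Values were tested as log2(FPKM + 1) with limma 3.58.1 (trend and robust) in R 4.3.3, over genes averaging 0.5 FPKM or more, without scaling or covariates, and the fits were tested on simulated data. Single genes were also compared by two-sided exact permutation of the mice. Sequences were read from the mm9 genome at GENCODE vM1 gene models.

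The members and the lists were chosen with earlier results of these data known. Named in full were Hist1h4c, the 8 members with the highest hippocampal mean and every member called in a comparison. Alternatives were another filter (none, or 1 FPKM), a pseudocount of 0.1, scaling by quantiles or by the median, limma without trend and robust, a replicate block, all 4 hippocampal groups in 1 fit, each mouse left out, and, added after seeing the data, a choroid plexus covariate.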

Additional observations from a re-analysis of the deposited data

Results flagged for a closer look

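In the groups of 4 to 6 mice, a single mouse stood apart by Dixon's test in 3 of the 58 sets of values of the named genes, where chance gives about 1 in 20. Hist1h1b was at 2.88 FPKM in 5XFAD 1, Hist1h2ab at 2.13 FPKM in compound 1 and Hist4h4 at 0.966 FPKM in Hdac1 cKO 4 of the GFAP+ nuclei, where the other 3 mice were at 0, so that any value above 0 would have stood apart.

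The difference made by Hdac1 loss differed between mice with and without 5XFAD in the interaction fit over 20 hippocampal mice for Hist1h2bc by 0.61 on the log2 scale (limma adjusted p = 0.348) and for Hist1h4h by 0.97 (limma adjusted p = 0.491). It differed for Hist1h4c by 2.79, a value that contains the difference by which the gene was chosen. None of the 3 passed the adjustment over all genes.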

How the results depend on the processing

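The counts of members past the call thresholds, here over all members tested with Hist1h4c and Hist4h4 among them, were small and moved with single settings. In 5XFAD against control the count was 2 and became 1 under quantile normalization and 4 with a replicate block. Calls over all genes were 425 of 14402 in the main fit, 425 under quantile normalization and 476 with the block. In compound against control the count of members was 3 and became 1 with choroid plexus markers as a covariate, while calls over all genes rose from 608 to 704 of 14348. In compound against Hdac1 cKO the count of members was 2 and became 1 with all 4 groups in one fit, at a filter of 1 FPKM and at a pseudocount of 0.1. Calls over all genes went from 504 of 14195 to 500 of 14389, 439 of 12813 and 697 of 14195 in these fits. In GFAP+ nuclei the count of members was 1 and became 2 under median scaling and under quantile normalization, 3 without a filter and 5 with the choroid plexus covariate. Calls over all genes went from 389 of 15070 to 411 of 15064, 413 of 15070, 406 of 18584 and 916 of 15070. In the interaction the count of members was 3 and became 6 without a filter, while calls over all genes went from 586 of 14389 to 659 of 19120. Same-numbered mice did not deviate together (correlations between -0.114 and 0.0766 over the 6 comparisons), so the numbers name samples only. The replicate block left 1, 3, 2, 2 and 1 members called in Hdac1 cKO against control, compound against control, compound against 5XFAD, compound against Hdac1 cKO and the GFAP+ nuclei. Over all genes the calls with the block were, in the same order, 499 of 14265, 593 of 14348, 204 of 14326, 511 of 14195 and 426 of 15070.

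With 1 mouse left out, the count ranged from 1 to 4 in Hdac1 cKO against control, at 4 without control 1 and at 2 without control 2, control 4, Hdac1 cKO 2 or Hdac1 cKO 4. In 5XFAD against control it ranged from 2 to 5, at 4 without 5XFAD 2 and 5 without 5XFAD 3. Over all genes 470 of 14381 and 497 of 14419 were called in these 2 fits, beside 425 of 14402 with all mice. The count of members ranged from 1 to 4 in compound against control, at 1 without control 3, and from 2 to 4 in compound against 5XFAD. In compound against Hdac1 cKO it ranged from 1 to 3, at 1 without Hdac1 cKO 1, 3 or 5. In the GFAP+ nuclei it ranged from 1 to 3, at 3 without Hdac1 cKO 3, Hdac1 cKO 4 or control 4 and at 2 without control 1, and in the interaction from 1 to 4, at 1 without control 2. Calls over all genes in these fits lay between 411 and 659 in Hdac1 cKO against control and between 410 and 605 in 5XFAD against control. They lay between 557 and 755 in compound against control, 183 and 251 in compound against 5XFAD and 461 and 596 in compound against Hdac1 cKO. In the GFAP+ nuclei they lay between 384 and 531 and in the interaction between 533 and 756. The call of Hist1h1b was lost in 8 of 11 such fits against 5XFAD and in 5 of 9 against control, that of Hist1h2ab in 6 of 9 and that of Hist1h2bc in the interaction in 8 of 20. The call of Hist1h4h was lost against Hdac1 cKO without Hdac1 cKO 3 and in the interaction without control 2 or 4, and that of Hist1h1e without control 4. In 5XFAD against control Hist1h4d fell under the thresholds without 5XFAD 1 or control 2 and under quantile normalization. The call of Hist1h4h in Hdac1 cKO against control held in each fit with a mouse left out. Hist4h4 was below the filter in compound against Hdac1 cKO without Hdac1 cKO 1, 4 or 5, and fell under the thresholds there with all 4 groups in one fit and at a pseudocount of 0.1, and against control with the choroid plexus covariate. Hist1h1b also lost its call against control with all 4 groups in one fit, and against 5XFAD under 2 of the settings other than a mouse left out.

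The difference of Hist1h4c changed sign in compound against control, between -0.18 and 0.40, and in GFAP+ nuclei, between -0.30 and 0.31 with a mouse left out and at -0.24 with a pseudocount of 0.1. The cause was not tested. Depth limits most members: in a hippocampal library with 1 fragment of Hist1h4c its value was between 0.803 and 2.36 FPKM.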
